A study of Ovis aries with 9 samples.

Results

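The genes described here are 10 that serve protein folding in the endoplasmic reticulum (ER) or the response to unfolded protein there, followed through pregnancy and milk production in sheep hepatocytes. They were chosen by symbol, and all 10 were found among the 28837 named genes of the count table. HSPA5 (BiP), HSP90B1 (GRP94) and CALR (calreticulin) are ER chaperones, PDIA4 and PDIA6 are protein disulfide isomerases, and DNAJB9 and SDF2L1 are co-factors of HSPA5. HERPUD1 acts in ER-associated degradation, XBP1 encodes a transcription factor whose mRNA is spliced by the sensor IRE1, and CREB3L3 (CREBH) is a transcription factor held in the ER membrane of liver cells.

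The ER is where secreted and membrane proteins are folded, glycosylated and joined by disulfide bonds, and hepatocytes carry a large load because they make most plasma proteins. When unfolded protein builds up, HSPA5 leaves the sensors ERN1 (IRE1), EIF2AK3 (PERK) and ATF6, which then raise chaperone genes, degradation genes and the ATF4 pathway. CREB3L3 is cut in the Golgi like ATF6, and in mouse liver it is better known for activating lipid and fasting genes such as FGF21, APOA4 and APOA5.

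Hepatocytes came from livers of female sheep at 9 stages, with 1 sample per stage: lactation day 7 and day 15, gestation days 40 to 50, 50 to 70, 70 to 80, 90 to 100, 100 to 120 and 140 to 150, and a virgin stage. The livers were taken at slaughter and kept cold, digested with collagenase, and single cells were picked by hand into wells for Smart-seq3xpress, a full-length single-cell RNA-seq method. The sources used here give neither breed nor age, nor the animals behind each sample, and no sample carries a genetic change or a drug treatment in its labels. The p-values below therefore measure only the spread between stages, and the virgin stage, a single sample, is assumed to vary like the others.

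The table held 3404 cells, 246 to 553 per stage, with 1619431353 reads on named genes and stage medians of 374832 to 469964 reads per cell. The 9 of 10 hepatocyte markers that were present summed to between 68429 and 178592 CPM in every stage, where CPM are reads of a gene per library scaled to a common size. Markers of other cells were low but uneven: the plasma cell gene JCHAIN stood at 94.9 CPM on lactation day 7 and the red cell gene HBB at 222 CPM, while bile duct markers summed to at most 1.03 CPM in any stage. CPM throughout come from reads summed over the cells of a stage, with library sizes scaled by the trimmed mean of M values (TMM), and counting error on them is small: SDF2L1, a low member, had 48.8 CPM on lactation day 7 with a 95% Poisson interval of 47.6 to 50.

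Per kilobase of gene model, the chaperones were the most abundant members. Averaged over the 9 stages, HSPA5 had 239 CPM per kb, HSP90B1 203 and CALR 165. XBP1 followed at 125 CPM per kb, HERPUD1 at 106, DNAJB9 at 94.8 and PDIA4 at 91.6. PDIA6 averaged 70.8 CPM per kb, SDF2L1 46.9 and CREB3L3 44.6. Neighbours in this order overlapped: HSPA5 ranged from 161 to 357 CPM per kb across stages and HSP90B1 from 161 to 250. Gene counts do not separate spliced from unspliced XBP1, and DDIT3 (CHOP), a death-linked target of ATF4, was listed with 0 reads in every library, as was HSPA8, a chaperone that every cell uses, so these zeros are not read as absence.

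The 3 ER chaperones were all highest in the virgin stage. HSPA5 had 883 CPM in virgin hepatocytes, then 517, 492, 397, 421, 789 and 555 CPM over the 6 gestation stages in order, and 721 and 536 CPM on days 7 and 15 of lactation. The gestation levels lay low except at days 100 to 120, which came second of all stages. HSP90B1 had 908 CPM in virgin hepatocytes, 794, 628, 712, 585, 807 and 733 CPM through gestation, and 840 and 644 CPM in lactation. CALR had 446 CPM in virgin hepatocytes, 270, 287, 280, 302, 285 and 334 CPM through gestation, and 350 and 267 CPM in lactation. CALR in the virgin stage was thus apart from all 8 others, which spanned 267 to 350 CPM.

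The disulfide isomerases did not share this peak. PDIA4 had 274 CPM in virgin hepatocytes, 383, 202, 216, 204, 269 and 274 CPM through gestation, and 340 and 179 CPM in lactation, so its highest stage was days 40 to 50 and its lowest lactation day 15. PDIA6 varied little in gestation, at 150 to 178 CPM, with 178 CPM in virgin hepatocytes and 215 and 127 CPM on days 7 and 15 of lactation. Of the HSPA5 co-factors, DNAJB9, which holds IRE1 in check, had 249 CPM in virgin hepatocytes, 134 to 216 CPM in gestation and 214 and 183 CPM in lactation. SDF2L1 had 46.4 CPM in virgin hepatocytes, 32.7 to 44.9 CPM in gestation, and 48.8 and 30.1 CPM in lactation.

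HERPUD1 stood out at 1 stage. It had 188 CPM in virgin hepatocytes, 190, 138, 110, 157, 372 and 167 CPM through gestation, and 269 and 184 CPM in lactation, so that days 100 to 120 lay far above the next gestation stage at 190 CPM. XBP1 had 221 CPM in virgin hepatocytes, 259, 231, 144, 201, 218 and 184 CPM through gestation, and 287 and 227 CPM in lactation, with its lowest value at days 70 to 80. CREB3L3 had 44.3 CPM in virgin hepatocytes, 45, 47.3, 64.4, 118, 98.8 and 185 CPM through gestation, and 86.3 and 104 CPM in lactation. It varied most of the 10, by 4.16 times between its lowest and highest stage, against 1.55 times for HSP90B1.

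**Figure D1:**
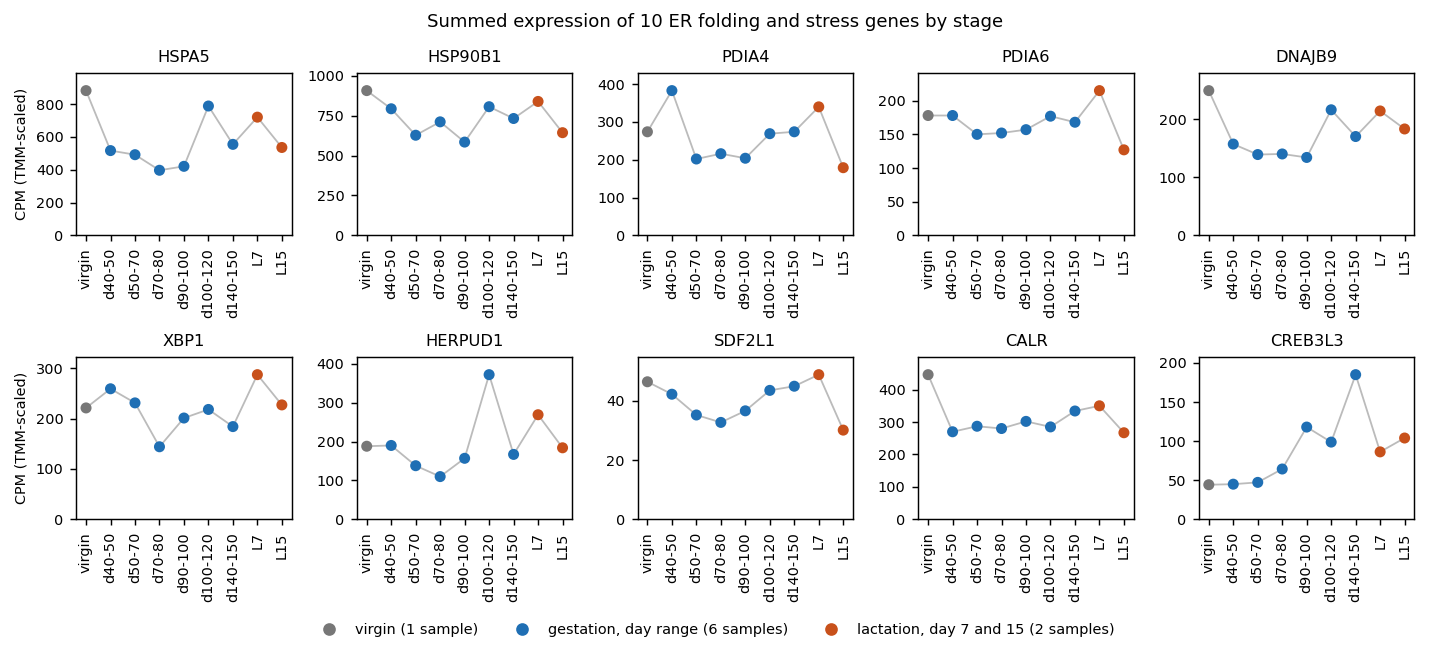
Summed expression of each member in CPM (y axis, from 0) at the 9 stages in order (x axis; d, gestation days; L, lactation day), with 1 point per sample coloured by phase and a grey line joining them. HSPA5, HSP90B1, DNAJB9 and CALR were highest in the virgin stage, HERPUD1 at days 100 to 120 (372 CPM), and CREB3L3 at days 140 to 150 (185 CPM).

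The comparison of lactation with gestation asks whether hepatocytes change their folding genes once milk is made. No member passed the test: 0 of 10 had an adjusted p under 0.05 in edgeR's quasi-likelihood test, where 0.0592% of all genes did, and 0 of 10 had an unadjusted p under 0.05, where 5.01% of genes were called higher and 4.39% lower. DESeq2's test likewise called 0 of 10 after adjustment in this comparison and in the 2 against the virgin stage. The fitted change was above 0 for 10 of 10 members (all genes, 48.9%) but small, with a median of 0.07 on the log2 scale against -0.01 over all genes. With DESeq2 size factors in place of TMM, 8 of 10 stayed above 0. XBP1 averaged 257 ± 42.1 CPM in lactation (SD, n = 2) and 206 ± 40.1 CPM in gestation (SD, n = 6), which is 0.32 higher on the log2 scale (SE 0.22). DNAJB9 averaged 198 ± 21.9 CPM in lactation (SD, n = 2) and 159 ± 30.9 CPM in gestation (SD, n = 6), likewise 0.32 higher on the log2 scale (SE 0.20). PDIA4, with 259 ± 114 CPM in lactation (SD, n = 2) and 258 ± 69.1 CPM in gestation (SD, n = 6), differed by 0.01 on the log2 scale (SE 0.30).

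Other genes of the pathway had differences in both directions. The 104 tested genes came from 7 lists (chaperones, disulfide formation, sensors, degradation, translocation and glycosylation, COPII export, PERK outputs). Of these, 76 were above 0 in lactation, against 48.9% of all genes. At an unadjusted p under 0.05 in edgeR's test, 9 were higher (all genes, 5.01%) and 4 were lower (all genes, 4.39%). None passed after adjustment. The median of these 104 was 0.14 on the log2 scale. Among genes higher at an unadjusted p under 0.05 were ATF4, the factor translated under PERK signalling, with 355 ± 17 CPM in lactation (SD, n = 2) and 228 ± 44.6 CPM in gestation (SD, n = 6), and DERL1, a channel of ER-associated degradation, with 139 ± 16.2 CPM in lactation and 90.8 ± 9.88 CPM in gestation. SEC24D, a cargo adaptor of COPII export vesicles, and TXNDC5, a disulfide isomerase, had log2 differences of 0.75 (SE 0.21) and 0.63 (SE 0.18). Lower at that level was ERP29, a folding factor of the disulfide isomerase family, with 76.4 ± 1.79 CPM in lactation and 119 ± 7.19 CPM in gestation. So were SEL1L, the partner of the ubiquitin ligase SYVN1, with a log2 difference of -0.48 (SE 0.19), and SIL1, a nucleotide exchange factor of HSPA5, with -0.51 (SE 0.16). The largest of these differences was that of DDIT4, a PERK output, at -1.39 (SE 0.47). DDIT4 averaged 18.2 ± 5.2 CPM in lactation and 47.7 ± 25.8 CPM in gestation, while 6 of the 8 PERK outputs were above 0. Both lactation samples lay above all 6 gestation samples for 11 of the 104 genes and below them for 5, where 6.14% and 4.86% of all genes did so, and for 0 of the 10 members in either direction.

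Plasma protein genes and most hepatocyte markers had the opposite sign. Of the plasma proteins, which pass through the ER, 2 of 17 genes were above 0 (all genes, 48.9%), with a median of -0.41 on the log2 scale. Of 9 tested hepatocyte markers, most of them also on the plasma protein list, 1 was above 0 and the median was -0.56. At an unadjusted p under 0.05 in edgeR's test, 4 of the 17 and 4 of the 9 were lower (all genes, 4.39%). CPS1, a urea cycle enzyme of mitochondria that is not secreted, averaged 941 ± 98.4 CPM in lactation (SD, n = 2) against 2040 ± 261 CPM in gestation (SD, n = 6). Its fitted log2 difference was -1.12 (SE 0.22), and edgeR's test gave an adjusted p of 0.118. The marker above 0 was HNF4A, which is likewise not secreted. HNF4A averaged 125 ± 8.48 CPM in lactation (SD, n = 2) and 106 ± 13.8 CPM in gestation (SD, n = 6). Together the 17 plasma protein genes summed to 137896 and 96690 CPM on days 7 and 15 of lactation, against 177414 to 243535 CPM in gestation, and ALB averaged 40023 ± 11342 CPM in lactation (SD, n = 2) and 97969 ± 8696 CPM in gestation (SD, n = 6). ALB did not pass after adjustment either, with an adjusted p of 0.212 in edgeR's test. Such a share of the library bears on scaling: by library size alone the median of all genes moved from -0.01 to 0.18 on the log2 scale, and that of the members from 0.07 to 0.26. Of unadjusted calls over all genes, 80.2% were then higher in lactation, against 53.3% with TMM.

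The 2 lactation samples disagreed, so their mean hides a difference. On day 7 against days 140 to 150, the step across birth, 9 of 10 members were higher: HERPUD1 had a ratio of 1.61 (95% counting interval 1.59 to 1.63), XBP1 1.56 (1.54 to 1.58) and HSPA5 1.3 (1.29 to 1.31). These intervals leave out the choice of scaling and the spread between cells. On the log2 scale HERPUD1, XBP1 and HSPA5 were at 0.69, 0.64 and 0.38. By library size they were at 0.85, 0.80 and 0.54, and with equal weight per cell at 0.79, 0.81 and 0.53, outside the intervals. CREB3L3 alone was lower, at 0.467 times (0.457 to 0.478). It was the only member past the size rule of 2-fold, which 3.54% of genes with at least 20 CPM passed upward and 4.77% downward, and it stayed inside 2-fold under scaling by library size. On day 15 against day 7 of lactation the order turned, with 9 of 10 members lower: PDIA4 was at 0.525 times (0.518 to 0.532), PDIA6 at 0.592, SDF2L1 at 0.617 and HERPUD1 at 0.683, and CREB3L3 was at 1.2 times (1.18 to 1.23). No member passed 2-fold there, where 6% of genes did so upward and 3.48% downward. With 1 library on each side these steps have no replicate check; the median gene moved by -0.05 and 0.19 on the log2 scale across birth and within lactation.

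The same split shows in the fits. Without day 7, PDIA4 in lactation against gestation was -0.53 on the log2 scale, PDIA6 -0.36 and SDF2L1 -0.38; without day 15 the same differences were 0.40, 0.40 and 0.32. Without the gestation stage of days 100 to 120, DNAJB9 and HERPUD1 had unadjusted p-values of 0.0358 and 0.0425 in edgeR's test, with log2 differences of 0.42 and 0.57. That stage was the highest in gestation for both genes, so leaving it out had to lower their gestation means. Red cell and neutrophil markers summed to 7.86 CPM on day 15 and 235 CPM on day 7, and plasma and B cell markers to 6.5 CPM on day 15 and 103 CPM on day 7. Leukocyte and macrophage markers summed to 12.2 CPM on day 15 and 53.4 CPM on day 7. Endothelial and stellate markers went the other way, at 29.1 and 9.16 CPM, as did bile duct markers, at 0.64 and 0.288 CPM. Plasma cells have a large ER of their own. The 502 cells that carried other cells' markers were next left out, and by this choice of cells the marker sums had to fall. The 6 plasma and B cell markers counted for this summed to 4.72 CPM on day 15 and 3.96 CPM on day 7. Red cell and neutrophil markers still summed to 0.564 CPM on day 15 and 3.2 CPM on day 7. HERPUD1 was then at 0.638 times on day 15 against day 7, HSPA5 at 0.699, SDF2L1 at 0.593, and PDIA4 at 0.5, just past 2-fold. Across birth, on day 7 against days 140 to 150, HERPUD1 was then at 1.67 times, XBP1 at 1.63 and CREB3L3 at 0.468.

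In gestation against the virgin stage, 8 of 10 members had a fitted difference below 0, as did 9147 of 20263 genes. None of the members passed after adjustment. CALR averaged 293 ± 22.6 CPM in gestation (SD, n = 6) and had 446 CPM in the virgin sample, a log2 difference of -0.61 (SE 0.21), and its unadjusted p in edgeR's test was 0.0177. DNAJB9 averaged 159 ± 30.9 CPM in gestation (SD, n = 6) and had 249 CPM in the virgin sample, a log2 difference of -0.64 (SE 0.26) with an unadjusted p of 0.0333 in edgeR's test. HSPA5 averaged 529 ± 141 CPM in gestation (SD, n = 6) and had 883 CPM in the virgin sample, the most negative difference of the 10 at -0.74 (SE 0.33), but with an unadjusted p of 0.0501. HSP90B1 was at -0.36 (SE 0.26), with an unadjusted p of 0.193 in edgeR's test. All 6 gestation stages lay below the virgin sample for 6 of 10 members, namely HSPA5, HSP90B1, CALR, DNAJB9, SDF2L1 and, by a small margin, PDIA6, where 14.8% of all genes did so. All 6 lay above it for CREB3L3 alone among the members, where 12.3% of all genes did so. HERPUD1, at 0.01 (SE 0.53), and CREB3L3, at 1.07 (SE 0.70), were the 2 members above 0. CREB3L3 had its 6 gestation stages between 45 and 185 CPM against 44.3 CPM in the virgin sample.

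After adjustment 1 gene of 20263 passed in this comparison (0.00494%). CALR and DNAJB9, 2 of 10, had an unadjusted p under 0.05 and were lower, against 2.15% of all genes; no member was higher at that level, against 2.3%. DNAJB9 missed that level, at 0.0504 to 0.0538, when days 50 to 70, 70 to 80 or 90 to 100 was left out, and HSPA5 reached 0.00689 in edgeR's test without days 100 to 120. The stage of days 100 to 120 was the highest in gestation for HSPA5, so leaving it out had to lower its gestation mean. The median over the members was -0.18 on the log2 scale against 0.06 over all genes. By library size alone these medians were -0.33 for the members and -0.08 for all genes, with 28.4% of unadjusted calls higher in gestation, against 51.7% with TMM.

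Other ER genes had differences in the same direction, and some were larger. Of the 104 pathway genes, 71 were below 0 in gestation (all genes, 9147 of 20263). At an unadjusted p under 0.05 in edgeR's test, 14 were lower (all genes, 2.15%) and 0 were higher (all genes, 2.3%). MANF, a secreted ER stress protein that binds HSPA5, averaged 79 ± 17.2 CPM in gestation (SD, n = 6) and had 188 CPM in the virgin sample, a log2 difference of -1.25 (SE 0.26). CRELD2, which like MANF is induced by ER stress, averaged 9.77 ± 1.29 CPM in gestation (SD, n = 6) and had 24.6 CPM in the virgin sample, at -1.33 (SE 0.25). UBE2J1, a ubiquitin-conjugating enzyme of ER-associated degradation, was at -1.15 (SE 0.35) and TXNDC5 at -0.86 (SE 0.23). The adjusted p-values of MANF and CRELD2 were 0.468 and 0.449 in edgeR's test, and 0.0283 and 0.0172 in DESeq2's, which called 117 genes. Each of these rests on the single virgin library.

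**Figure D2:**
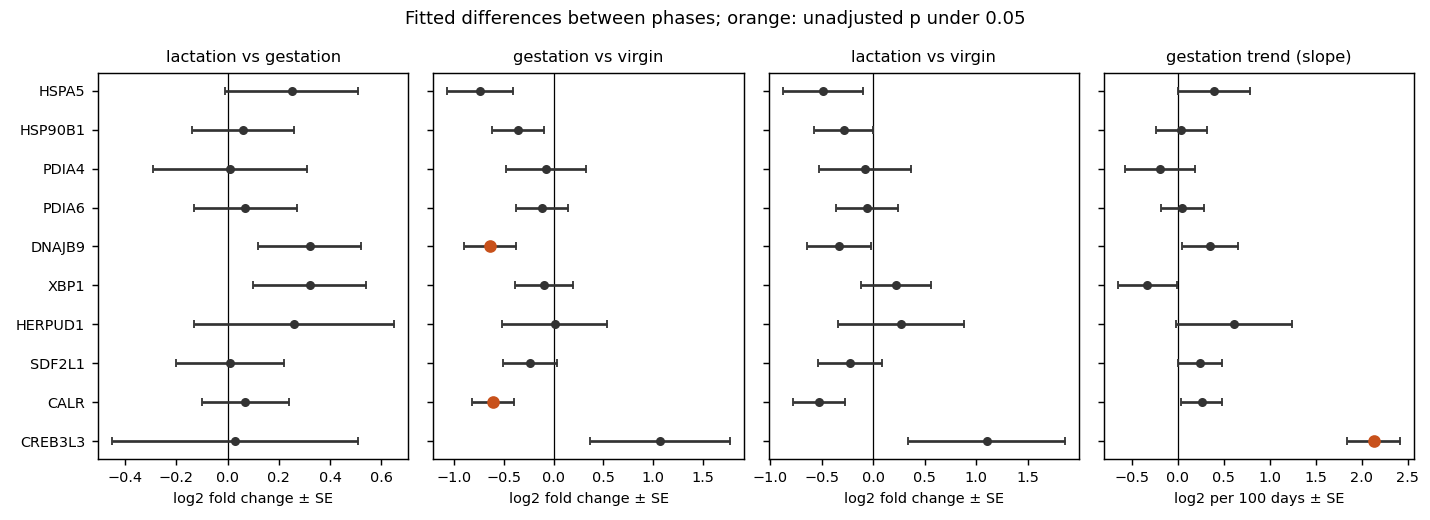
Fitted log2 fold change (x axis, ± SE) of each member (rows) in lactation against gestation, gestation against virgin and lactation against virgin, and slope per 100 days over the 6 gestation samples. Orange points have an unadjusted p under 0.05 in edgeR's test: DNAJB9 and CALR below 0 in gestation against virgin, and CREB3L3 above 0 in the slope.

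In lactation against the virgin stage no member was called, before or after adjustment, where 0% of all genes passed adjustment, 2.5% were higher at an unadjusted p under 0.05 and 2.43% were lower. CALR averaged 308 ± 59 CPM in lactation (SD, n = 2) and had 446 CPM in the virgin sample, a log2 difference of -0.53 (SE 0.25) with an unadjusted p of 0.0594 in edgeR's test and 0.0231 without day 7. HSPA5 was at -0.49 (SE 0.39) and CREB3L3 at 1.10 (SE 0.76). Among the other ER genes MANF averaged 89.5 ± 1 CPM in lactation (SD, n = 2) and had 188 CPM in the virgin sample, at -1.07 (SE 0.31). In lactation against virgin, 46 of the 104 pathway genes were above 0 (all genes, 53.4%). At an unadjusted p under 0.05 in edgeR's test, 0 of the 104 were higher (all genes, 2.5%) and 6 were lower (all genes, 2.43%).

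CREB3L3 had the steepest slope of the 10 through gestation. Over the 6 gestation samples its slope was 2.13 on the log2 scale per 100 days (SE 0.29), or 4.39-fold, with an unadjusted p of 7.75e-05 and an adjusted p of 0.0804 in edgeR's test. It did not pass the threshold, which 0.0336% of all genes passed. With no filter on low counts its adjusted p was 0.0483, and in DESeq2's test, which called 306 genes, 4.24e-07. Leaving out 1 stage at a time kept the slope between 2.02 and 2.25, with an adjusted p of 0.0885 to 0.484 in edgeR's test, the highest without days 140 to 150. The other 9 members had slopes of -0.33 to 0.61 with no unadjusted p under 0.05; over all genes 3.2% were called higher and 3.41% lower at that level.

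The genes that CREB3L3 activates in mouse liver partly shared this direction. APOA5, a regulator of lipoprotein lipase, had 329, 270, 558, 1056, 536 and 1291 CPM over the gestation stages, a slope of 2.08 per 100 days (SE 0.53). Both APOA5 and CREB3L3 dipped at days 100 to 120 between higher neighbours. APOA4, an apolipoprotein of triglyceride-rich particles, was at 0.321 to 1.98 CPM until days 100 to 120 and at 86.1 CPM at days 140 to 150, with a slope of 7.53 (SE 0.99) and an adjusted p of 0.0804 in edgeR's test. That slope rests largely on the last stage: without days 140 to 150 it was 3.16 with an adjusted p of 0.734 in edgeR's test, and with 1 stage left out it ran from 3.16 to 8.04. FGF21, a fasting hormone of the liver, had 0.434 CPM at days 40 to 50, 47.4 CPM at days 100 to 120 and 22.6 CPM at days 140 to 150, and then 67.4 and 120 CPM in lactation. Others of the list did not share the direction. CRP had 5526 CPM at days 40 to 50 and 3835 CPM at days 140 to 150, and HAMP had 1146 and 739 CPM. CIDEC was low, at 1.63 and 3.14 CPM. Of the 6 genes tested in this list, 4 had a slope above 0 (all genes, 51.1%) and 2 a slope below 0. At an unadjusted p under 0.05 in edgeR's test, 3 had a slope above 0 (all genes, 3.2%). These 6 genes have other activators, and the slope of CREB3L3 mRNA does not report cleavage of its protein.

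**Figure D3:**
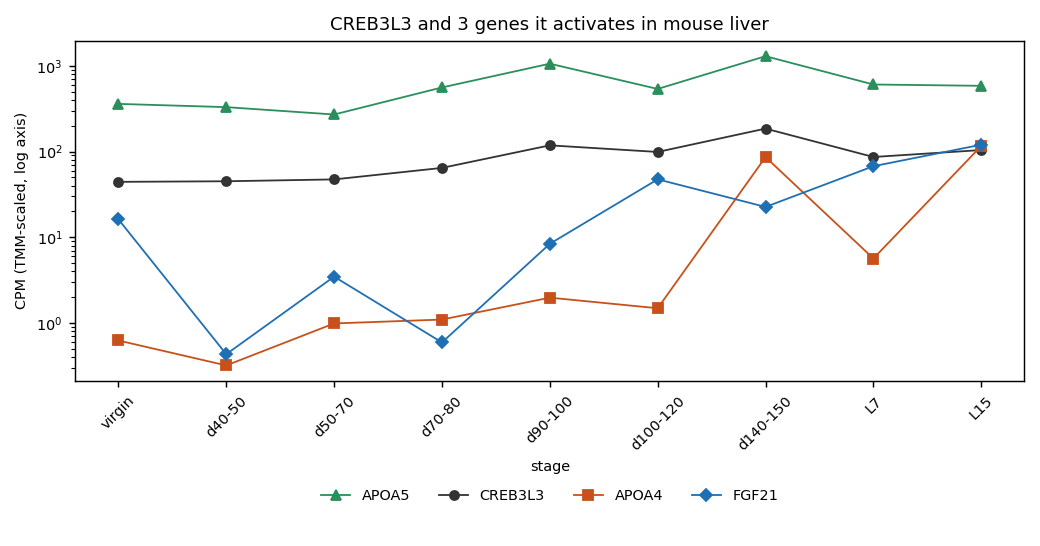
CPM on a log axis (y) of CREB3L3 and of APOA5, APOA4 and FGF21 at the 9 stages (x axis; d, gestation days; L, lactation day), with 1 point per sample. CREB3L3 and APOA5 reached their highest values at days 140 to 150 (185 and 1291 CPM), and APOA4 was under 2 CPM until days 100 to 120. CRP, HAMP and CIDEC, of the same list, are not drawn.

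Among the sensors, ERN1 had a slope of 1.56 per 100 days of gestation (SE 0.50) with an unadjusted p of 0.0147 and ATF6 0.59 (SE 0.24) with 0.0408 in edgeR's test, and neither passed adjustment. ERN1 had 193 CPM in virgin hepatocytes, 68.8, 37.2, 81.1, 91.3, 163 and 133 CPM through gestation, and 83.3 and 80.6 CPM in lactation. PDIA5 had a slope of -0.95 (SE 0.28) and PRDX4, an ER peroxidase, of 0.94 (SE 0.34). In all, 5 of the 104 pathway genes had a slope above 0 and 2 a slope below 0 at an unadjusted p under 0.05, with 52 above and 52 below 0; over all genes 3.2% had a slope above 0 and 3.41% a slope below 0 at that level.

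The cells of a stage show how each level was spread. To compare cells, each was thinned to 155164 reads, which kept 3063 cells and left out 13 to 58 per stage. HSPA5 and HSP90B1 had reads in 100% of thinned cells in every stage, so their stages differ in amount per cell and not in how many cells have a read. In the gestation stages up to days 90 to 100, HSPA5 had medians of 61 to 71 reads per thinned cell, against 143 reads in virgin hepatocytes, whose quartiles were 110 and 181. Of the cells of these gestation stages, 0.939% to 5.56% reached 143 reads. The virgin level was spread over many cells: the top 10% of virgin cells held 18.3% of HSPA5 reads.

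Days 100 to 120 were different in this respect. HSPA5 there had a median of 75 reads per thinned cell, near the other gestation stages, but an upper quartile of 153 and a 90th percentile of 227, and the top 10% of cells held 28.7% of its reads, against 18.3% to 21.4% in the other 8 stages. Of these cells, 27.1% reached the virgin median. HERPUD1 at days 100 to 120 was higher across the distribution, with a median of 47 reads and quartiles of 25 and 76.2, against medians of 16 to 24 reads in the other gestation stages. Before thinning, the cells of this stage also had the fewest genes, with a median of 5171 per cell against 5766 to 6748 in the other stages. Their median of reads was the highest, at 469964. The part of this in the HSPA5 and HERPUD1 levels was not tested.

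**Figure D4:**
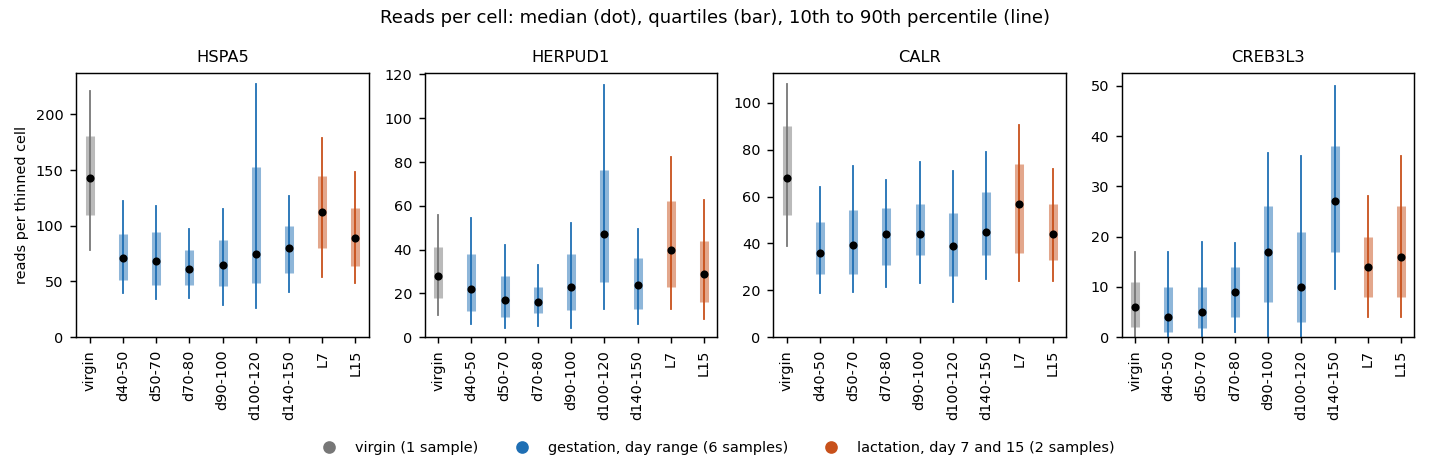
Reads per cell (y axis) after thinning to 155164 reads, for HSPA5, HERPUD1, CALR and CREB3L3 at the 9 stages (x axis; d, gestation days; L, lactation day): dots are medians over cells, thick bars quartiles and thin lines the 10th to 90th percentile. HSPA5 at days 100 to 120 had a median of 75 reads and a 90th percentile of 227, and CREB3L3 had a median of 27 reads at days 140 to 150.

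CREB3L3 differed between stages both in amount and in how many cells had a read. At days 140 to 150, 98.2% of thinned cells had at least 1 CREB3L3 read (exact 95% interval 96.4% to 99.2%; 99.4% unthinned), with a median of 27 reads and quartiles of 17 and 38. At days 40 to 50, 79.6% did (74.3% to 84.3%; 83.8% unthinned), with a median of 4 reads. The top 10% of cells held 20.8% of CREB3L3 reads at days 140 to 150 and 36.1% at days 40 to 50. Few reads per cell by themselves raise this share and lower the share of cells with a read. SDF2L1, with medians of 4 to 6 reads, had 26.8% to 34.4% of its reads in the top 10% of cells across stages. How evenly cells shared CREB3L3 is therefore not read from these values.

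Within a stage, the chaperone genes varied together from cell to cell. Across the thinned cells of a stage, HSPA5 and HSP90B1 had a Spearman correlation of 0.42 (median of 9 stages, range 0.23 to 0.59), HSPA5 and DNAJB9 of 0.28 (0.19 to 0.49), and HSPA5 and CALR of 0.25 (0.07 to 0.39). Over 4128 other genes, the median correlation with HSPA5 was 0.00 and the 95th percentile 0.09, and 7 of the 9 other members lay above that percentile. SDF2L1, at 0.06, and CREB3L3, at -0.01, did not. Against each member's own 95th percentile, 7 of the 9 others lay above it for HSP90B1, XBP1 and CALR, and 6 for PDIA4 and DNAJB9. The count was 5 for PDIA6, 4 for HERPUD1 and 2 for SDF2L1. CREB3L3 had 0 of 9, with medians of -0.06 to 0.09 with the other 9. These are descriptions of cells that share a library method and a depth.

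Of 3707 genes outside the members ranked by their likeness to HSPA5 across cells, MANF came first at 0.32 (median of 9 stages) and was above 0 in 9 of 9. PDIA3, a disulfide isomerase of glycoproteins, was at 0.25, SEC61G and SSR1 of the translocation channel at 0.23 and 0.19, and DNAJB11, a co-chaperone of HSPA5, at 0.21. The other 3 of the first 8 were TMSB10, an actin-binding peptide, at 0.25, and BTG1, an inhibitor of cell growth, and AHSG, a secreted plasma protein, at 0.17 each; these 3 were above 0 in 6 of 9 stages. The genes most like CREB3L3 were G0S2, an inhibitor of the lipase ATGL, and PLIN2, a lipid droplet coat protein, at 0.25 each. The transcription factor ZBTB16 followed at 0.21, the mitochondrial carrier SLC25A47 at 0.20 and PC, the pyruvate carboxylase of gluconeogenesis, at 0.19. Of the genes that CREB3L3 activates in mouse liver, only APOA5 and FGF21 are given here, at 0.19 and 0.17 with CREB3L3. They do not stand for the whole list.

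At days 100 to 120 HSPA5 also went with some genes of heat shock and early stress, and not with others. HSPA5 correlated at 0.64 with HSPA1A, the inducible cytosolic HSP70, at 0.57 with its co-chaperone DNAJB1, and at 0.49 and 0.43 with the immediate early genes JUNB and ATF3. Of the other cytosolic chaperones HSP90AA1 was at 0.53 there, HSPH1 at 0.48, DNAJA1 at 0.45, and HSP90AB1 and HSPA4 at 0.29 each, whereas the mitochondrial HSPD1, HSPA9 and TRAP1 were at 0.16, 0.05 and -0.12. Of the immediate early genes, FOS, JUN, ZFP36 and KLF6 were at 0.26 to 0.29, IER2 at 0.16, FOSB at 0.12, EGR1 at 0.09 and DUSP1 at -0.27. In the other 8 stages the correlation with HSPA1A ran from -0.11 to 0.20. XBP1 too had its highest correlation with HSPA5 at days 100 to 120, at 0.51, while PDIA4 and PDIA6 were at 0.02 and -0.03. HSPA1A had 307 CPM at days 100 to 120 and 55.8 to 94.9 CPM elsewhere. The 11 cytosolic and mitochondrial chaperones present summed to 2180 CPM at days 100 to 120 and 1222 to 1558 CPM elsewhere, and the 10 immediate early genes to 266 CPM against 108 to 214 CPM. The part of these genes in the HSPA5 and HERPUD1 levels at days 100 to 120 was not tested.

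**Figure D5:**
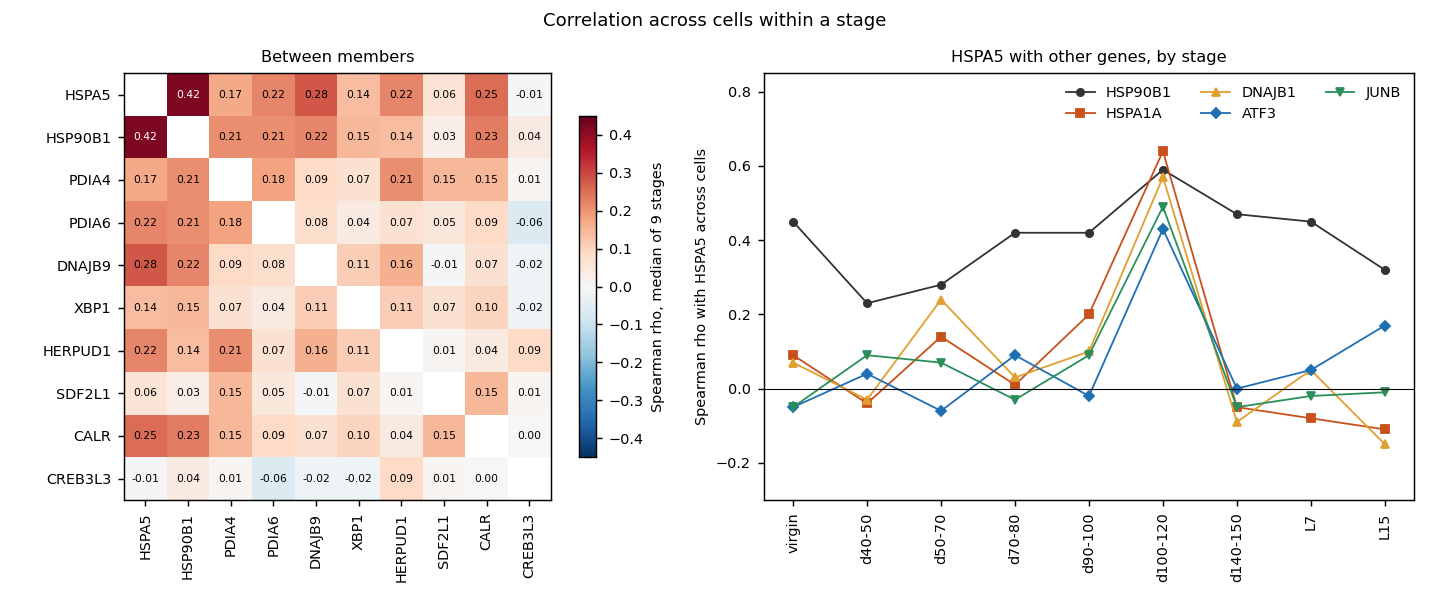
Left, Spearman correlation between members across thinned cells of a stage, as the median of 9 stages (colour scale and printed values). Right, correlation with HSPA5 (y axis) of HSP90B1 and 4 stress genes at each stage (x axis); HSP90B1 stayed between 0.23 and 0.59, whereas HSPA1A, DNAJB1, ATF3 and JUNB reached 0.43 or more at days 100 to 120 only.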

How the data were processed

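Per the labels' protocols, hand-picked cells were each made into a Smart-seq3xpress library. Reads went through Trimmomatic 0.39, HISAT2 2.1.0 and featureCounts 2.0.1, per the submitters' processing notes. The genome build, strand setting and any collapse of molecular identifiers are not given in the sources used here. The deposited table holds read counts per gene and cell, made by the authors; 24 rows naming no gene (0.474% of reads) were left out. Gene symbols were matched to RefSeq. No doublet caller was run on the picked cells, and 0 cell names were repeated among 3404. Sequences of the members are not reported here.

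For each stage the counts of its cells were added up and tested with edgeR 4.0.16 (R 4.3.3; filterByExpr, TMM, quasi-likelihood test, Benjamini-Hochberg adjustment over all genes, threshold 0.05), with 1 term per phase over 9 samples; the slope used the midpoint of each day range over 6 gestation samples. All 10 members passed the filter. Cells were thinned to 155164 reads, the 10th percentile, leaving out 341 of 3404 cells. Intervals cover counting error only. Alternatives used DESeq2 1.42.0, limma 3.58.1, other scalings, no filter, other sets of cells and 1 sample fewer; leaving out cells with at least 100 CPM of other cells' markers was chosen after seeing the data. The scripts were tested on simulated data.

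Members and gene lists were chosen with earlier results of these data known. Named besides the members are, per list and comparison, genes called after adjustment or else up to 2 with the smallest unadjusted p among genes of at least 20 CPM, and the genes most like HSPA5 (8) and CREB3L3 (5). DDIT3, HSPA8, the stage values of FGF21, CRP, HAMP and CIDEC, HSPA1A and the other chaperones outside the ER, the immediate early genes, JCHAIN and HBB were named after their values were seen.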

Additional observations from a re-analysis of the deposited data

Results flagged for a closer look

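In the group of 6 gestation samples, 7 of 40 genes looked at had a sample that lay far from the others by Dixon's criterion (a gap over 0.625 of the range). Among like samples chance meets this in about 1 group of 20. That rate cannot be set against the count here. The 6 samples are ordered stages, and the genes besides the members were looked at because of their p in these data. HERPUD1 stood at 372 CPM at days 100 to 120 with the nearest gestation sample at 190 CPM, and MANF at 112 CPM in the same sample with the nearest at 82.8 CPM. APOA4 stood at 86.1 CPM at days 140 to 150 with the nearest at 1.98 CPM, and APOA1, the main protein of high-density lipoprotein, at 3519 CPM in that sample with the nearest at 1895 CPM. SIL1 and TF (transferrin) stood at 36.2 and 10044 CPM at days 40 to 50, with the nearest at 30.2 and 7740 CPM, and DDIT4 at 97.1 CPM at days 70 to 80 with the nearest at 49.8 CPM.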

How the results depend on the processing

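No paired analysis was possible because the labels give the phases no shared replicate numbers. Calls among the members moved in few places. At an unadjusted p under 0.05, members higher in lactation than in gestation numbered 2 with equal weight per cell, 2 by library size, and 0 to 2 with 1 sample left out; members lower in gestation than in the virgin stage numbered 4 with equal weight per cell and 1 to 3 with 1 sample left out; members lower in lactation than in the virgin stage numbered 0 to 1. By library size, 2198 genes in all were higher in lactation at that level and 542 lower, against 1015 and 890 by TMM. The 2 members called by library size are therefore not read apart from that shift. For equal weight per cell and for 1 sample left out, the share of all genes called at that level is not given. Those counts of members thus have no background to be set against. The gestation slope called 1 member after adjustment, CREB3L3, in DESeq2's test and 1 with no filter. Across birth, 0 members passed 2-fold by library size and 0 with equal weight per cell; on day 15 against day 7 of lactation 1 did, PDIA4, without cells carrying other cells' markers.

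In lactation against gestation, PDIA4 turned to -0.01 with DESeq2 size factors and in DESeq2's test and to -0.05 with cells between the 10th and 90th percentile of reads, SDF2L1 to -0.01 with size factors and in DESeq2's test, and CREB3L3 to -0.02 without cells carrying other cells' markers. With 1 sample left out the log2 differences ran from -0.14 to 0.24 for HSP90B1, -0.53 to 0.40 for PDIA4, -0.36 to 0.40 for PDIA6, -0.04 to 0.57 for HERPUD1, -0.38 to 0.32 for SDF2L1, -0.14 to 0.26 for CALR and -0.12 to 0.34 for CREB3L3. In gestation against virgin, HERPUD1, at 0.01, was -0.15 with equal weight per cell and by library size, -0.00 without cells carrying other cells' markers, and -0.32 to 0.13 with 1 sample left out. In lactation against virgin the ranges were -0.61 to 0.32 for PDIA4, -0.48 to 0.27 for PDIA6, -0.03 to 0.52 for HERPUD1 and -0.62 to 0.08 for SDF2L1. The slopes ran from -0.05 to 0.27 for HSP90B1, -0.65 to 0.56 for PDIA4 and -0.01 to 0.24 for PDIA6. The cause was not tested.

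Over all genes, adjusted calls in lactation against gestation numbered 12, against 523 in DESeq2's test, 22 by library size, 21 with no filter, 6 with equal weight per cell, 5 with cells between the percentiles, and 1 to 45 with 1 sample left out. In gestation against virgin they numbered 1, against 117 in DESeq2's test, 57 with equal weight per cell, 5 with no filter, 2 with cells between the percentiles and 0 without cells carrying other cells' markers. In lactation against virgin they numbered 0, against 96 in DESeq2's test and 33 with equal weight per cell. For the slope they numbered 6, against 306 in DESeq2's test, 16 with equal weight per cell, 17 with no filter and 0 to 9 with 1 sample left out. By library size, 80.2% of unadjusted calls were higher in lactation than in gestation, against 53.3% by TMM, and 28.4% higher in gestation than in virgin, against 51.7%.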
